A study of Mus musculus with 192 samples.

Results

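The genes described here encode Nrf2 (Nfe2l2), the proteins that hold it back, its partners on DNA and a relative. They were chosen by symbol and comprise Nfe2l2, Keap1, Cul3, Mafg, Maff, Mafk, Bach1, Nfe2l1 and Sqstm1, which are 9 of the 54752 genes in the expression table. Each of them passed the filter on low counts in all 9 tissues, giving 81 pairs of gene and tissue. Male mice on the C57BL/6J background (C57BL/6 in the labels) were either wild type (WT) or homozygous for the Nfe2l2 tm1Ymk allele (Nrf2-KO), and were either kept about a month on the International Space Station (FL_WT, FL_KO) or in a ground control of the flight (GC_WT, GC_KO). The labels give an age of 12 weeks for all of them, which the methods give as the age when mice were ready for launch. The flight mice were therefore older than this when their tissues were taken. The ground control, which simulated the flight, also ran for about a month before dissection. The labels give no difference in age between the groups. All mice lived in individual cages, and the Nrf2-KO mice had been selected for the absence of a hepatic shunt. RNA was sequenced from the cerebrum (Cbr), kidney (Kid) and thymus (Thy), from epididymal white and interscapular brown fat (eWAT and iBAT), from the liver (Liv) and spleen (Spl), and from temporal and mandibular bone (TpB and MdB). Each group held 6 mice, or 3 in MdB and Kid, and flight mouse 04, an Nrf2-KO mouse with severe intestinal hemorrhage, was left out. FL_KO therefore had 5 mice, with 2 in MdB and 3 in Kid. The ground control was run in another season and at another site than the flight, so effects of flight cannot be told apart from those of the date and place of the experiment. Flight mice were dissected after their return to Earth, so effects of the return cannot be told apart from those of the stay in space either.

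Nrf2 is a transcription factor that switches on antioxidant and detoxifying enzymes. In unstressed cells Keap1 binds Nrf2 and hands it to the ubiquitin ligase built on Cul3, so that the protein is made and degraded continuously, and its activity is set mostly at the level of the protein rather than of its mRNA. Stabilised Nrf2 pairs with a small Maf protein (Mafg, Maff or Mafk) on antioxidant response elements. Bach1 pairs with the same small Mafs on much the same elements and represses them. Nfe2l1 (Nrf1) is a relative of Nrf2 that resides in the endoplasmic reticulum and governs proteasome genes, and Sqstm1 (p62) is an autophagy receptor that draws Keap1 away from Nrf2.

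Several of these genes are themselves known to carry antioxidant response elements, and the promoters were therefore searched for the core TGACNNNGC on both strands. On GRCm38, Nfe2l2 lay at chr2:75675513-75704641 (minus strand), Keap1 at chr9:21229730-21239361 (minus) and Cul3 at chr1:80264923-80340480 (minus). The small Maf genes lay at chr11:120625117-120633600 (Mafg, minus), chr15:79346621-79359076 (Maff, plus) and chr5:139791513-139802653 (Mafk, plus). Bach1 lay at chr16:87698945-87733346 (plus), Nfe2l1 at chr11:96817414-96829968 (minus) and Sqstm1 at chr11:50199366-50210827 (minus). RefSeq promoter windows of 300 bases on the same build, from 250 bases before to 50 after a start, were at hand for all 9 genes. The core occurred in windows of 4 of them, Nfe2l2 and the 3 small Maf genes, and in windows of 14.0% of all gene symbols. The 4 matches are shown 5′ to 3′ on the strand of the gene with up to 30 bases on either side, where capitals mark the core or its reverse complement.
Nfe2l2, chr2:75704865-75704913, core at -240 from the start: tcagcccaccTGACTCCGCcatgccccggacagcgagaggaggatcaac
Mafg, chr11:120633731-120633797, reverse complement at -222: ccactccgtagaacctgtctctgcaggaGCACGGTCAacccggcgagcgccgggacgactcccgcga
Maff, chr15:79346479-79346547, core at -112: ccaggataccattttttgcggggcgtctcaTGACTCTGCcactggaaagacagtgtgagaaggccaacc
Mafk, chr5:139791493-139791561, reverse complement at -13: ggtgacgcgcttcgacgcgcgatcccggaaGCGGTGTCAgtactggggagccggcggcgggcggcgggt
The letters TGACTCA, the shared core of AP-1 and Maf sites, were in none of the 9 genes' windows and in those of 5.95% of all symbols. A match of letters is a description of the window and no evidence of binding.

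Libraries held 8.01 to 10.6 M (10 to the power of 6) expected counts in Thy and 13 to 16.3 M in the other tissues. Thy libraries were made from RNA depleted of rRNA and all others from poly(A) RNA. Tissue labels were checked against marker genes, and the markers of each labelled tissue had a group median above 1 TPM. The series' design text names the cerebellum, but all 5 cortex neuron markers exceeded 1 TPM in Cbr and summed to 3509 to 4380 TPM, against 101 to 134 TPM for the cerebellum list. Skeletal muscle markers summed to 5955, 2856 and 7425 TPM in iBAT of flight mice 06, 08 and 11, and to at most 61.4 TPM in the other iBAT libraries. Leaving out these 3 libraries, or the thymus of ground mouse 04, which lay apart from its group, changed none of the calls on the 9 genes. Exons of Keap1, Mafg, Mafk and Sqstm1 share 510, 124, 169 and 580 bases with those of a neighbouring gene, so their counts may hold reads of Gm16754, Sirt7, Tmem184a and Mrnip. Only Sirt7 lies on the same strand as the gene it overlaps. The libraries were made with a strand-specific kit, but the strand setting used in counting is not known here.

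The levels of the 9 genes differed between tissues in GC_WT mice, as given in TPM, a transcript abundance that corrects for gene length and library size. Sqstm1 had the highest median of the 9 genes in 7 tissues and Nfe2l1 in eWAT and iBAT, and Maff had the lowest in all 9. Median Nfe2l2 was 98.7 TPM in MdB, 75.9 in eWAT, 75.6 in Spl, 66.8 in TpB, 53.8 in Kid, 42.2 in Liv, 37.4 in iBAT, 23.6 in Thy and 16.9 in Cbr, a 5.83-fold range. Of the 8 neighbours in this order, MdB stood above eWAT, iBAT above Thy and Thy above Cbr without overlap of the mice, and the other 5 overlapped. The inhibitor side varied less. Keap1 ran from 44.9 TPM in Cbr to 17.6 in iBAT, a 2.55-fold range, and Cul3 from 101 TPM in Cbr to 34.3 in Liv, a 2.96-fold range. On this scale Cbr had the lowest median Nfe2l2 and the highest median Keap1 and Cul3 of the 9 tissues. Across the 9 tissue means, log2(TPM + 1) of Nfe2l2 correlated with that of Keap1 at r = 0.183, whereas Keap1 and Cul3 gave r = 0.758 and Mafg and Sqstm1 gave r = 0.867. These correlations describe 9 points, of which Thy differs in library type.

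The other members had their own order of tissues. Mafg ran from 67.2 TPM in TpB to 8.51 in Thy, a 7.89-fold range, with only iBAT and Thy standing below all other tissues. Mafk was highest in Spl at 25.8 TPM and lowest in iBAT at 3.13, an 8.26-fold range. Bach1, the repressor, was highest in Thy at 35.7 TPM, followed by Spl at 20.7, both without overlap with the next tissue, and was lowest in iBAT at 4.29. Nfe2l1 was highest in eWAT at 326 TPM and lowest in Thy at 33.3, a 9.78-fold range, and Sqstm1 was highest in Cbr at 463 TPM and lowest in Thy at 90.0. Maff lay between 1.54 TPM in MdB and 5.29 in eWAT, and none of its 8 neighbouring tissues were separated. A set was formed of ribosomal, mitochondrial, small RNA and Gm-numbered genes and of all genes with symbols starting with Rn. It took a median of 65.9% of the TPM in iBAT and 62.2% in Thy of GC_WT mice, which lowers the TPM of every other gene there. Mitochondrial genes alone took 35.6% in iBAT and 1.02% in Thy. When TPM was taken over the remaining genes only, 31 of the 81 places in these orders stayed the same, and 5 of the 9 genes kept their highest and 5 their lowest tissue. Nfe2l2 was again highest in MdB and lowest in Cbr, and Keap1 highest in Cbr. Cul3 was then highest in Thy at 157 TPM, overlapping with Cbr at 149. Mafk was highest in Thy at 42.4 TPM, without overlap with Spl at 35.6, and lowest in Liv at 5.34. Nfe2l1 was then highest in iBAT and lowest in Liv, Sqstm1 highest in Kid, Keap1 lowest in Liv and Bach1 lowest in Cbr.

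**Figure D1:**
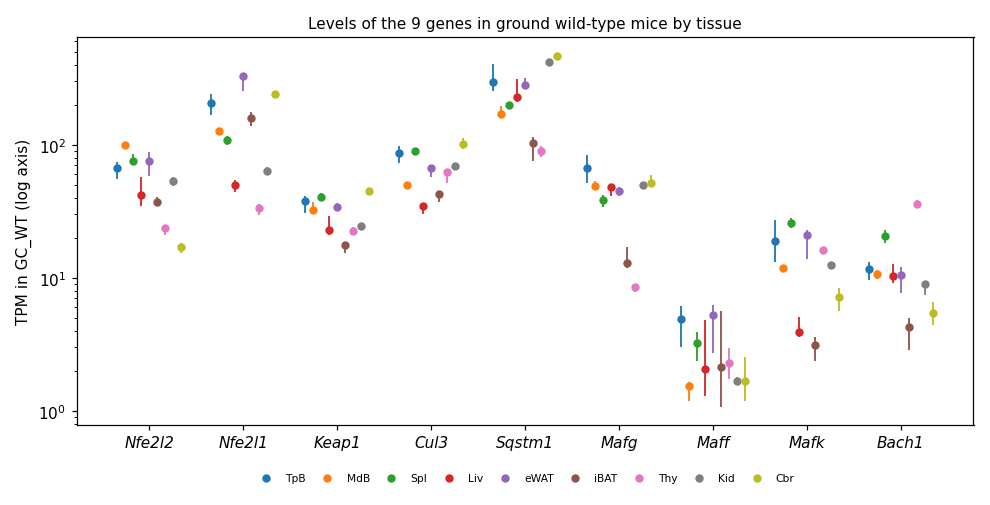
TPM of the 9 genes in GC_WT mice on a log axis, with the genes side by side and the tissues in colour. A point marks the median of a tissue and a line runs from its lowest to its highest mouse (6 mice, 3 in MdB and Kid). Nfe2l2 is highest in MdB and lowest in Cbr, whereas Keap1 and Cul3 are highest in Cbr. For Cul3, Thy comes first instead when ribosomal, mitochondrial, small RNA, Gm-numbered and Rn-prefixed genes are taken out of the TPM.

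The small Maf pool also differed in make-up. Mafg made up a median of 88.7% of the summed TPM of Mafg, Maff and Mafk in Liv of GC_WT mice, 85.7% in Cbr, 79.9% in MdB, 78.6% in Kid, 72.9% in TpB, 72.0% in iBAT, 64.1% in eWAT and 56.9% in Spl. In Thy it was 31.6%, and Mafk made up 60.3% there. The Mafg share in Thy of single GC_WT mice, 29.3 to 33.0%, did not overlap with that of any other tissue, of which Spl was the nearest with 55.1 to 59.4%.

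The targeted gene was examined first for the effect of genotype. The tm1Ymk allele replaces part of the region that encodes the DNA-binding and dimerisation domain, so transcript from the rest of the gene can still be counted, and a count over the whole gene does not test the deleted part. Nfe2l2 TPM was lower in every Nrf2-KO mouse than in every WT mouse of the same tissue, on the ground and in flight, in all 9 tissues. Among all genes with a mean of at least 5 TPM in either group, the share whose WT and Nrf2-KO mice did not overlap on the ground was 0.24% in TpB, 5.98% in MdB, 1.09% in Spl, 2.80% in Liv, 1.80% in eWAT, 3.99% in iBAT, 1.35% in Thy, 18.3% in Kid and 0.924% in Cbr. In flight it was 0.72%, 17.2%, 2.85%, 3.74%, 2.02%, 2.20%, 6.38%, 18.0% and 1.35% in the same order.

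In Cbr the lowest, median and highest Nfe2l2 levels were 15.4, 16.9 and 18.1 TPM in GC_WT and 13.8, 15.2 and 17.5 TPM in FL_WT. They were 3.88, 4.41 and 6.39 TPM in GC_KO, and the 5 FL_KO mice had 3.72, 4.57, 3.84, 4.13 and 4.97 TPM. This was the deepest loss, with a mean in Nrf2-KO of 28.4% of WT on the ground and 27.7% in flight. In MdB the 3 GC_WT mice had 98.7, 105 and 95.3 TPM and the 3 FL_WT mice 89.3, 105 and 109 TPM, against 31.3, 31.1 and 36.4 TPM in GC_KO and 37.5 and 30.3 TPM in FL_KO. In Kid the GC_WT mice had 48.6, 53.8 and 57.6 TPM and the FL_WT mice 58.1, 70.9 and 60.2 TPM, against 27.1, 22.0 and 24.6 TPM in GC_KO and 28.9, 34.6 and 29.9 TPM in FL_KO. Both tissues separated the genotypes clearly, with 33.0% of the WT mean remaining in MdB and 46.1% in Kid on the ground. In Liv the lowest, median and highest were 34.8, 42.2 and 57.2 TPM in GC_WT and 13.1, 15.8 and 17.3 TPM in GC_KO, and 35.9% remained. In the other tissues except Spl, 37.0 to 44.8% of the WT mean remained on the ground and 32.9 to 44.1% in flight.

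Spl was the exception. Nfe2l2 was 73.1, 75.6 and 85.1 TPM (lowest, median, highest) in GC_WT and 73.9, 79.8 and 86.7 TPM in FL_WT, against 60.4, 65.3 and 67.8 TPM in GC_KO and 66.1, 64.7, 63.5, 63.0 and 63.5 TPM in the FL_KO mice. The genotypes still did not overlap, but the mean in Nrf2-KO was 83.8% of WT on the ground and 80.1% in flight. On the log2 scale, edgeR's quasi-likelihood test with Benjamini-Hochberg adjustment over all genes of a tissue gave a difference of -0.25 (SE 0.039, adjusted p = 0.000394) between GC_KO and GC_WT in Spl. In the other 8 tissues the difference was between -1.13 (SE 0.10, adjusted p = 3.4e-05) in Kid and -1.81 (SE 0.084, adjusted p = 4.95e-14) in Cbr. Between FL_KO and FL_WT it was -0.26 (SE 0.041, adjusted p = 0.00055) in Spl, and between -1.02 in Kid and -1.83 in Cbr elsewhere. The genotype difference itself was then compared between Spl and each other tissue within the same mice. Spl had been singled out from earlier results on these data, so the tests give no independent support for this choice. The loss in Spl was smaller by 0.76 log2 units than in Kid and by 1.56 than in Cbr, with the other 6 tissues between. Each of the 8 differences had an adjusted p between 2.67e-05 and 0.00433 in two-sided permutation tests, exact for MdB and Kid and with 100000 resamples elsewhere. All 8 raw p-values were the smallest that the test could give, and Spl-minus-tissue values of WT and Nrf2-KO mice did not overlap in any of the 8 tissues. B and T cell markers summed to 1509 to 2047 TPM in Spl of all groups, and their part in this result was not tested. In a bulk tissue, fewer cells of one type and less RNA per cell cannot be told apart.

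**Figure D2:**
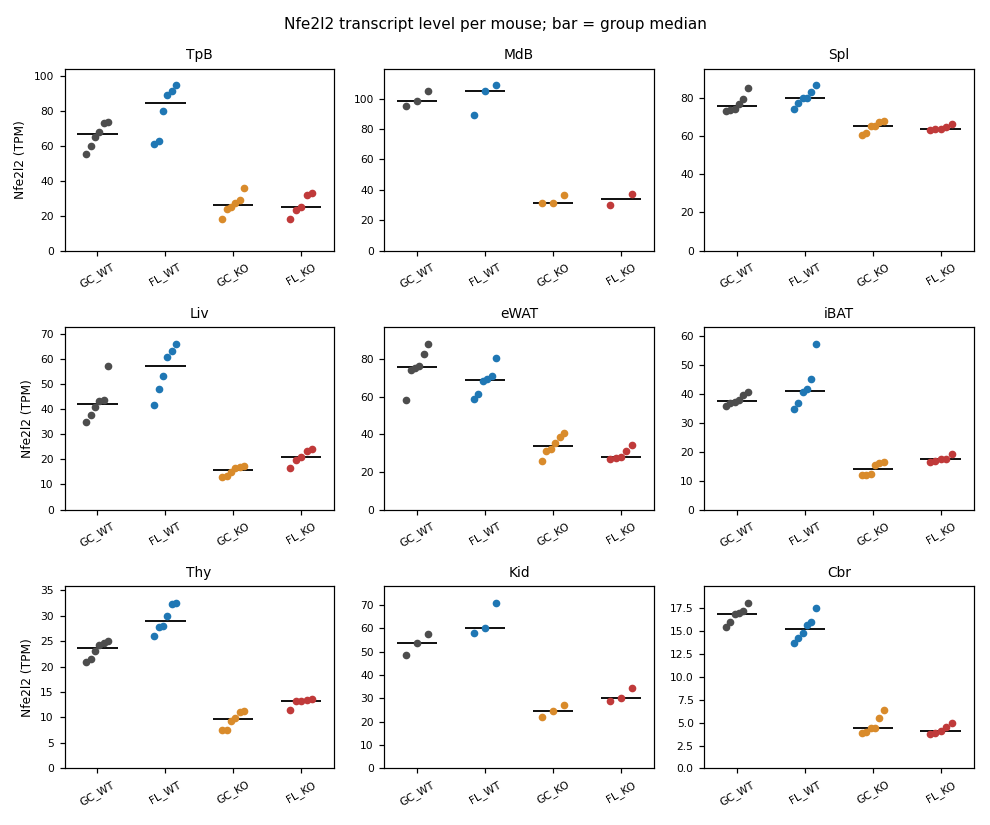
Nfe2l2 TPM in 9 panels, 1 per tissue with its own linear axis from 0, with a point for each mouse of GC_WT, FL_WT, GC_KO and FL_KO and a line at the group median. The Nrf2-KO mice lie at or under 54.8% of the WT mean in every tissue but Spl, where they lie between 78.3 and 88.0%.

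Besides Nfe2l2, 1 further gene was called by genotype, in 1 tissue. Between GC_KO and GC_WT, 10 of the 81 pairs were called at an adjusted p under 0.05, all lower in Nrf2-KO: Nfe2l2 in 9 tissues and Mafg in eWAT. The share of all tested genes called in this comparison was 0.198% in TpB, 0.244% in MdB, 1.13% in Spl, 2.64% in Liv, 2.74% in eWAT, 2.14% in iBAT, 3.81% in Thy, 1.61% in Kid and 0.836% in Cbr. Between FL_KO and FL_WT, 9 pairs were called, all of them Nfe2l2, against 0.203% of the genes in TpB, 0.208% in MdB, 1.16% in Spl, 3.65% in Liv, 1.06% in eWAT, 1.5% in iBAT, 2.64% in Thy, 1.83% in Kid and 0.531% in Cbr. Mafg in eWAT fell by 0.44 on the log2 scale (SE 0.055, adjusted p = 2.54e-05) in GC_KO, from 41.0, 44.5 and 47.9 TPM in GC_WT to 31.9, 35.6 and 41.5 TPM. In flight the difference was -0.21 (SE 0.058) and was not called (adjusted p = 0.0911), but it was with DESeq2 (-0.21, adjusted p = 0.0253) and in the edgeR fit without FL_KO mouse 02 (-0.26, adjusted p = 0.0382). The call on the ground was kept in each alternative fit.

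Keap1, Cul3, Maff, Mafk, Bach1, Nfe2l1 and Sqstm1 were not called by genotype in any tissue. For Keap1 the log2 difference lay between -0.12 and 0.06 on the ground. Sqstm1, a known Nrf2 target, was lower in Nrf2-KO with an unadjusted p under 0.05 in Kid by 0.25 (SE 0.080, adjusted p = 0.226), in Liv by 0.18 (SE 0.072, adjusted p = 0.251) and in Thy by 0.14 (SE 0.050, adjusted p = 0.125) on the ground, and none of these passed the test. At an unadjusted p under 0.05 there were 17 pairs in either comparison, 9 of them Nfe2l2. The other 8 of 72 pairs were 11.1%, near the 10.8% of all tested pairs of gene and tissue on the ground and the 10.4% in flight.

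The Nfe2l2 to Keap1 TPM ratio of each mouse was compared between flight and ground. It describes mRNA and does not measure the balance of the proteins. In Nrf2-KO the counted Nfe2l2 RNA comes from the disrupted gene. In GC_WT mice the median ratio was 2.97 in MdB, 2.31 in eWAT, 2.21 in Kid, 2.20 in iBAT, 1.89 in Spl, 1.88 in TpB, 1.82 in Liv, 1.02 in Thy and 0.356 in Cbr. In Liv the lowest, median and highest ratios were 1.51, 1.82 and 1.97 in GC_WT and 1.95, 2.29 and 2.50 in FL_WT, so that the groups overlapped only at their ends. The mean log2 ratio was 0.33 higher in FL_WT (exact two-sided permutation test, p = 0.00433, adjusted p = 0.039 over 9 tissues). In FL_KO against GC_KO it was 0.25 higher in Liv (exact p = 0.026, adjusted p = 0.156). With the ratio taken from expected counts, the difference in WT was 0.32 (adjusted p = 0.0682 by the same exact test), so the call did not hold. In Thy the ratio was 0.17 higher in FL_WT (exact p = 0.0195, adjusted p = 0.0877) and in Cbr 0.15 lower (exact p = 0.0455, adjusted p = 0.136), and neither passed. The 3 mice per group of MdB and Kid cannot give an exact p under 0.1.

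**Figure D3:**
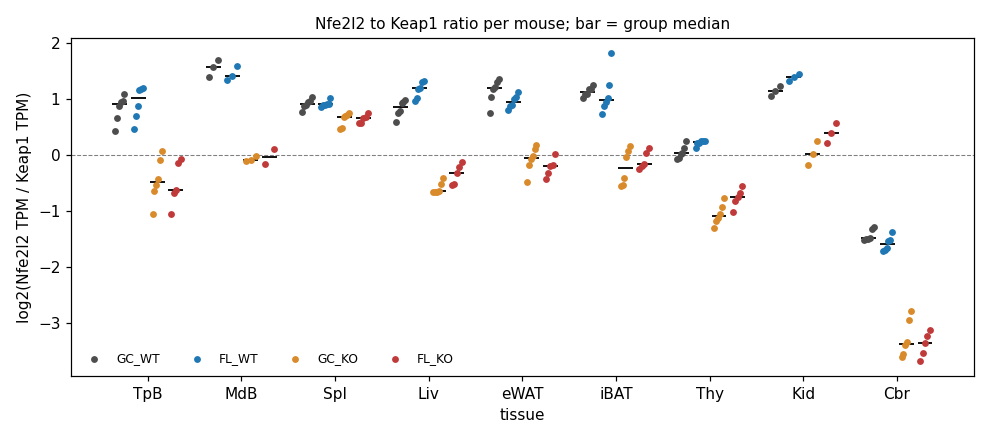
The Nfe2l2 to Keap1 TPM ratio of each mouse on a log2 axis, by tissue and group, with a line at the group median. In Cbr the ratio is under 1 in every group, and in Liv the FL_WT mice (0.97 to 1.32 on the log2 scale) lie above most GC_WT mice (0.60 to 0.98).

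Changes with flight were called in eWAT, iBAT and Thy and in no other tissue. Between FL_WT and GC_WT, 10 of the 81 pairs were called, 5 higher and 5 lower, with 19 at an unadjusted p under 0.05. Of them, 4 were in eWAT, where 13.4% of all tested genes were called, 1 in iBAT (19.2%) and 5 in Thy (22.8%). Between FL_KO and GC_KO, 11 pairs were called, 7 higher and 4 lower, with 22 at an unadjusted p under 0.05. These were 2 in eWAT (7.71% of all genes called), 3 in iBAT (33.5%) and 6 in Thy (38.2%). The counts out of 9 genes were near this background in iBAT and above it in eWAT and Thy, and 9 genes are too few to rank such shares. An unadjusted p under 0.05 was found for 16.4% of all tested pairs of gene and tissue in WT and 17.8% in Nrf2-KO. Without Nfe2l2, the members gave 17 of 72 pairs (23.6%) in WT and 18 of 72 (25%) in Nrf2-KO. In the other 6 tissues the share of all genes called in WT was 0% in TpB and MdB, 2.26% in Spl, 3.45% in Liv, 0.119% in Kid and 0.0244% in Cbr, and in Nrf2-KO 0% in TpB and MdB, 0.668% in Spl, 3.34% in Liv, 0.159% in Kid and 0.0061% in Cbr. In a simulation, 200 genes above a minimum mean count were changed in FL_WT. Between FL_WT and GC_WT, 94% of those at log2 1 and 56% of those at log2 0.5 were recovered in eWAT, and 82% and 17% in MdB. Smaller changes and genes of low count were not simulated as changed, so these rates do not cover them.

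**Figure D4:**
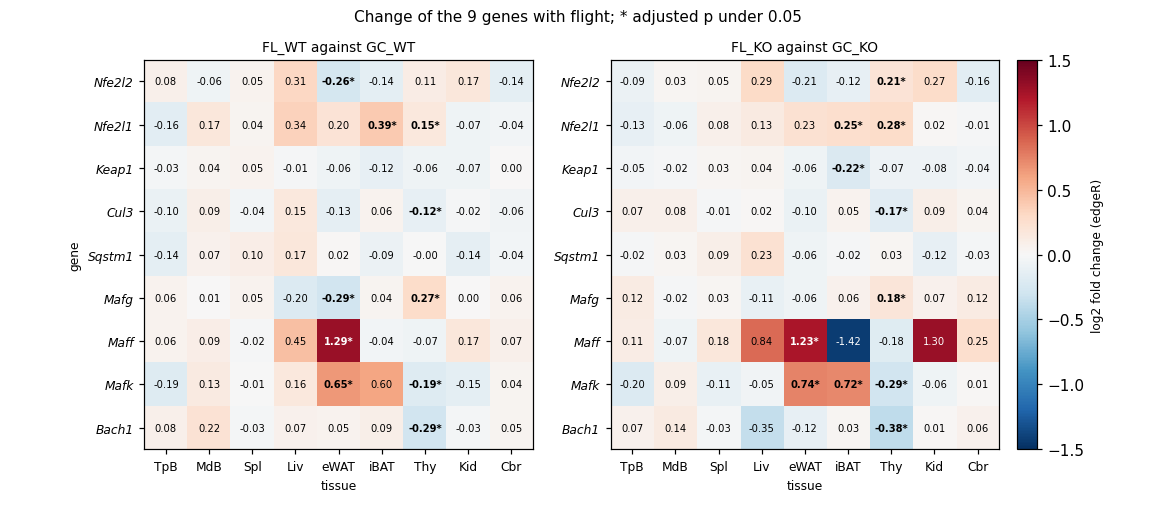
Heat map of the log2 fold change with flight of the 9 genes in 9 tissues, in WT and in Nrf2-KO mice, with the value in each cell and an asterisk where the adjusted p is under 0.05. The asterisks fall in eWAT, iBAT and Thy, and the largest called change is that of Maff in eWAT, 1.29 in WT and 1.23 in Nrf2-KO.

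In eWAT Maff and Mafk rose with flight in both genotypes, whereas Mafg was called lower in WT only, on the count scale. Maff, the small Maf best known for its induction by stress and inflammation, was 2.70, 5.29 and 6.29 TPM (lowest, median, highest) in GC_WT and 4.92, 13.5 and 18.4 TPM in FL_WT. It was 2.15, 3.48 and 5.80 TPM in GC_KO and 14.1, 11.7, 4.10, 8.53 and 5.71 TPM in the FL_KO mice. The flight mice were higher on the whole, with some overlap in both genotypes. FL_KO mice 01 and 02 had the highest values of their group (14.1 and 11.7 TPM). Maff split by mouse number in other tissues too, as given under other observations. The log2 change was 1.29 (SE 0.30, adjusted p = 0.0064) in WT and 1.23 (SE 0.32, adjusted p = 0.0222) in Nrf2-KO, and the latter call was lost without FL_KO mouse 01 (0.97, adjusted p = 0.075) or 02 (1.13, adjusted p = 0.0617) and with limma on TPM when no filter was applied (0.96, adjusted p = 0.107). Counts were low, at 46 to 104 in GC_WT and 80 to 286 in FL_WT.

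Mafk was 13.9, 20.8 and 22.7 TPM in GC_WT and 21.5, 35.2 and 38.6 TPM in FL_WT. It was 16.9, 19.0 and 22.4 TPM in GC_KO and 30.2, 41.6, 27.4, 32.0 and 30.9 TPM in the FL_KO mice, all of which were above all GC_KO mice. The log2 change was 0.65 (SE 0.12, adjusted p = 0.000989) in WT and 0.74 (SE 0.13, adjusted p = 0.00127) in Nrf2-KO, and each alternative fit kept both calls. In eWAT, 8.17% of all genes in WT and 5.82% in Nrf2-KO did not overlap between flight and ground.

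Mafg was the most abundant small Maf in GC_WT. It was 41.0, 44.5 and 47.9 TPM in GC_WT and 32.5, 38.5 and 44.5 TPM in FL_WT, a log2 change of -0.29 (SE 0.055, adjusted p = 0.00113). In Nrf2-KO, where Mafg was already lower on the ground, it was 31.9, 35.6 and 41.5 TPM in GC_KO and 35.0, 34.4, 31.5, 32.8 and 32.3 TPM in the FL_KO mice, and was not called. On the TPM scale the WT change was -0.18 (adjusted p = 0.0697, limma) and was not called. The difference between genotypes in the flight response of Mafg was 0.23 (SE 0.080, unadjusted p = 0.00907), but after adjustment over all genes it did not pass (adjusted p = 0.45). The Mafg share of the small Maf pool had a median of 64.1% in GC_WT and 44.8% in FL_WT, and of 60.7% in GC_KO and 44.7% in FL_KO. In both genotypes the shares of flight and ground mice did not overlap (61.1 to 71.2% against 41.2 to 59.4%, and 59.5 to 63.0% against 39.2 to 49.99%). The pool as a whole had a median of 69.8 TPM in GC_WT, 88.0 in FL_WT, 58.7 in GC_KO and 73.3 in FL_KO.

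**Figure D5:**
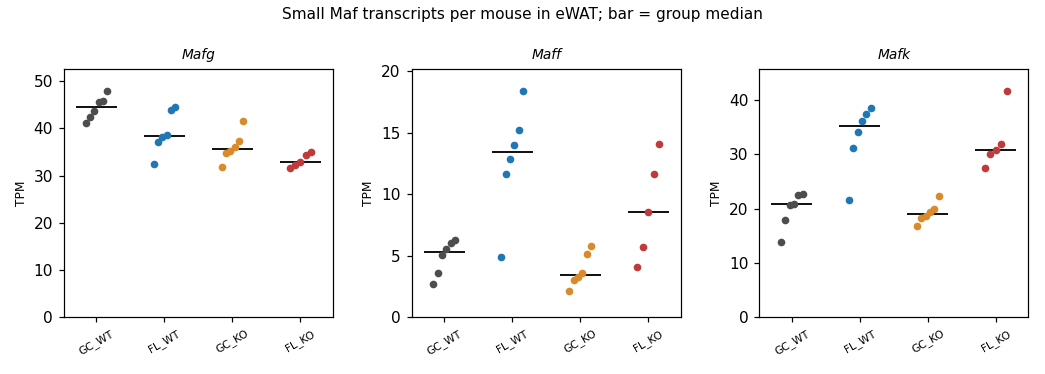
TPM of Mafg, Maff and Mafk in eWAT by group, with a point for each mouse, a line at the median and linear axes from 0. Maff and Mafk are higher in the flight groups, and Mafg is lower in FL_WT than in GC_WT.

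Macrophage markers (Cd68, Adgre1, Lgals3 and Cd14, all 4 above 1 TPM) moved in the same direction in eWAT. They summed to 171 to 274 TPM in GC_WT and 280 to 573 TPM in FL_WT, and to 178 to 292 TPM in GC_KO and 202 to 380 TPM in FL_KO. Their part in the changes of the small Mafs was not tested. Epididymis markers had a group median under 1 TPM for each gene, and adipocyte markers summed to 11120 to 16100 TPM in all groups. Nfe2l2 itself was 58.1, 75.9 and 87.9 TPM in GC_WT and 58.7, 68.7 and 80.6 TPM in FL_WT, a log2 change of -0.26 (SE 0.084, adjusted p = 0.043) that lay close to the threshold. The call was lost on the TPM scale (-0.15, adjusted p = 0.363, limma) and in the fits without FL_KO mouse 01, 02, 09 or 12 (-0.24 to -0.25, adjusted p = 0.0549 to 0.0588), which share the estimate of the spread. Nfe2l1 was 254, 326 and 337 TPM in GC_WT and 345, 392 and 425 TPM in FL_WT. The mice did not overlap, but the log2 change of 0.20 (SE 0.074, adjusted p = 0.0745) was not called. It was called with DESeq2 (0.21, adjusted p = 0.0282) and on the TPM scale (0.31, adjusted p = 0.00631, limma), and in Nrf2-KO the change was 0.23 (adjusted p = 0.0728 by edgeR and 0.0289 by DESeq2).

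In iBAT Nfe2l1 was higher after flight in both genotypes. Nfe2l1 in brown fat is known for keeping up proteasome activity in the cold. It was 138, 159 and 177 TPM in GC_WT and 222, 257 and 286 TPM in FL_WT. It was 144, 151 and 161 TPM in GC_KO and 223, 239, 235, 257 and 258 TPM in the FL_KO mice. Every flight mouse was above every ground mouse of its genotype, and flight and ground mice did not overlap for 24.6% of all genes in WT and 49.1% in Nrf2-KO. The log2 change was 0.39 (SE 0.050, adjusted p = 1.4e-05) in WT and 0.25 (SE 0.052, adjusted p = 0.00103) in Nrf2-KO, and each alternative fit kept both calls. On the TPM scale, on which the median gene rose by 0.31 and 0.43 in iBAT, the changes were 0.70 and 0.68. Cul3 and Bach1 in both genotypes and Mafg and Sqstm1 in Nrf2-KO were called higher on that scale alone (0.33 to 0.46).

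Mafk in iBAT was 2.36, 3.13 and 3.61 TPM in GC_WT and 3.78, 6.18 and 7.73 TPM in FL_WT, without overlap. It was 2.55, 2.995 and 4.92 TPM in GC_KO and 9.07, 9.91, 5.22, 5.85 and 5.47 TPM in the FL_KO mice, also without overlap. The log2 change was 0.60 (SE 0.22, adjusted p = 0.0643) in WT, which missed the threshold but passed it with the mouse number as a block (0.59, adjusted p = 0.00607), without FL_KO mouse 02 (adjusted p = 0.048) and on the TPM scale (0.73, adjusted p = 0.000636, limma), and 0.72 (SE 0.23, adjusted p = 0.0194) in Nrf2-KO, which passed but was lost without FL_KO mouse 01 (0.59, adjusted p = 0.0677) or 02 (0.54, adjusted p = 0.0853). Keap1 was 14.4, 16.02 and 17.5 TPM in GC_KO and 16.1, 15.3, 19.8, 20.6 and 21.1 TPM in the FL_KO mice. Its log2 change was -0.22 (SE 0.072, adjusted p = 0.024) on the count scale and 0.18 (adjusted p = 0.0618, limma) on the TPM scale, so the direction depends on the scaling, and the call on the count scale was lost without FL_KO mouse 01 (adjusted p = 0.0611) or 02 (adjusted p = 0.0706). Nfe2l2 was 11.8, 13.8 and 16.5 TPM in GC_KO and 16.5, 16.7, 17.3, 17.4 and 19.0 TPM in the FL_KO mice. It was called on the TPM scale, at 0.31 (adjusted p = 0.014, limma), and not on the count scale, where the change was -0.12 (SE 0.12, adjusted p = 0.461).

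Thy held the most calls on the 9 genes, with 5 in WT and 6 in Nrf2-KO, all of them small. Bach1, the repressor, was 34.2, 35.7 and 38.4 TPM in GC_WT and 33.2, 34.9 and 35.6 TPM in FL_WT, and 28.6, 35.4 and 40.4 TPM in GC_KO against 36.9, 33.4, 30.2, 31.3 and 29.3 TPM in the FL_KO mice. TPM of flight and ground mice overlapped in both genotypes. On the count scale Bach1 fell by 0.29 (SE 0.041, adjusted p = 3.4e-05) in WT and by 0.38 (SE 0.044, adjusted p = 1.12e-06) in Nrf2-KO, and both calls were lost on the TPM scale (-0.058 and -0.11), on which the median gene rose by 0.18 and 0.16.

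Nfe2l1 and Mafg were higher after flight in Thy on both scales. Nfe2l1 was 29.4, 33.3 and 35.8 TPM in GC_WT and 39.1, 43.2 and 49.6 TPM in FL_WT, and 21.9, 29.8 and 37.7 TPM in GC_KO against 38.5, 39.3, 41.9, 43.7 and 44.0 TPM in the FL_KO mice. No flight mouse overlapped with a ground mouse of its genotype, as for 19.7% of all genes in WT and 17.7% in Nrf2-KO, and the log2 change was 0.15 (SE 0.053, adjusted p = 0.038) and 0.28 (SE 0.056, adjusted p = 0.000359). Mafg was 7.77, 8.51 and 8.99 TPM in GC_WT and 9.42, 12.5 and 17.9 TPM in FL_WT, and 7.26, 8.60 and 8.92 TPM in GC_KO against 13.3, 12.5, 10.3, 10.6 and 11.3 TPM in the FL_KO mice. It rose by 0.27 (SE 0.067, adjusted p = 0.00472) in WT and by 0.18 (SE 0.071, adjusted p = 0.0466) in Nrf2-KO. The Nfe2l1 call in WT was lost in the fits without FL_KO mouse 01 or 11 (0.13, adjusted p = 0.0633 and 0.0738), and the Mafg call in Nrf2-KO without mouse 01, 02 or 12 (0.15 to 0.18, adjusted p = 0.0689 to 0.126) and with DESeq2 (0.17, adjusted p = 0.0717).

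Cul3, Mafk, Nfe2l2 and Sqstm1 in Thy rested on the scaling. Sqstm1 was not called on the count scale (-0.0037, adjusted p = 0.967 in WT and 0.03, adjusted p = 0.684 in Nrf2-KO), but was on the TPM scale (0.22, adjusted p = 0.0269 and 0.29, adjusted p = 0.00989, limma). Cul3 changed by -0.12 (SE 0.039, adjusted p = 0.0285) in WT and by -0.17 (SE 0.041, adjusted p = 0.00212) in Nrf2-KO on the count scale, but by 0.12 and 0.09 on the TPM scale, where neither was called. Mafk changed by -0.19 (SE 0.068, adjusted p = 0.0404) in WT and by -0.29 (SE 0.073, adjusted p = 0.00285) in Nrf2-KO, and on the TPM scale by 0.03 and -0.028, where neither was called. Nfe2l2 was 20.9, 23.6 and 25.01 TPM in GC_WT and 26.1, 29.0 and 32.5 TPM in FL_WT, and 7.55, 9.65 and 11.2 TPM in GC_KO against 13.4, 13.2, 13.3, 11.4 and 13.6 TPM in the FL_KO mice. TPM of flight and ground mice did not overlap in either genotype. The change was called in Nrf2-KO on the count scale, at 0.21 (SE 0.073, adjusted p = 0.0267), but not without FL_KO mouse 02, 09 or 12 (0.18 to 0.19, adjusted p = 0.0606 to 0.0791). In WT it was called on the TPM scale only, at 0.33 (adjusted p = 0.00575, limma). Thymocyte markers summed to 2070 to 2464 TPM in GC_WT and 1736 to 2165 TPM in FL_WT, and to 1455 to 2337 TPM in GC_KO and 1401 to 1605 TPM in FL_KO. Thymic epithelium and stroma markers summed to 146 to 240, 199 to 293, 102 to 210 and 199 to 238 TPM in the same groups. The part of these cells in the changes was not tested.

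In Liv, Nfe2l2 was 34.8, 42.2 and 57.2 TPM in GC_WT and 41.8, 57.2 and 66.2 TPM in FL_WT. The log2 change was 0.31 (SE 0.095, adjusted p = 0.0683) in WT and 0.29 (SE 0.10, adjusted p = 0.137) in Nrf2-KO, and neither was called. With the mouse number as a block the WT change was 0.31 (adjusted p = 0.024), and with DESeq2 it was 0.31 (adjusted p = 0.0316). On the TPM scale the Nrf2-KO change was 0.42 (adjusted p = 0.0296, limma). Sqstm1 in Liv changed by 0.17 (SE 0.072, adjusted p = 0.225) in WT and by 0.23 (SE 0.075, adjusted p = 0.0961) in Nrf2-KO. The latter was called with DESeq2 (0.24, adjusted p = 0.0364) and on the TPM scale (0.38, adjusted p = 0.0196, limma). Nfe2l1 in Liv of WT mice changed by 0.34 (adjusted p = 0.19), and was called with the block (0.33, adjusted p = 0.0367) and on the TPM scale (0.39, adjusted p = 0.0336, limma). In Kid, Maff was 1.79, 1.67 and 1.69 TPM in GC_WT, 1.90, 1.90 and 2.31 TPM in FL_WT, 0.89, 0.83 and 1.3 TPM in GC_KO and 3.71, 2.54 and 1.44 TPM in FL_KO. Its change with flight in Nrf2-KO was 1.3 (SE 0.32, adjusted p = 0.144), with counts of at most 70. It was called without FL_KO mouse 11 (1.61, adjusted p = 0.0114) and with no filter on low counts (1.299, adjusted p = 0.0364). In TpB, MdB, Spl and Cbr none of the 9 genes was called with flight. For Nfe2l2 in Spl, the tissue with the smallest loss in Nrf2-KO, the flight change was 0.05 (SE 0.039, adjusted p = 0.559) in WT and 0.05 (SE 0.041, adjusted p = 0.698) in Nrf2-KO.

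The flight response of the 9 genes was not shown to differ between genotypes. In the interaction of flight and genotype none of the 81 pairs was called by edgeR, as were 0% of all genes in each of the 9 tissues, and DESeq2 called none of the 81 either. At an unadjusted p under 0.05 there were 2 pairs, Mafg in eWAT and Maff in Kid (1.13, SE 0.45, adjusted p = 1). These were 2.78% of the 72 pairs without Nfe2l2, against 4.96% of all tested pairs of gene and tissue.

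Other regulators of the pathway were followed as a list of 23 genes, which gave 200 tested pairs of gene and tissue. With flight, 5 pairs rose and 9 fell in WT, and 12 rose and 13 fell in Nrf2-KO, in eWAT, iBAT and Thy. These were 7% of the pairs in WT, near the 6.55% of all tested pairs of gene and tissue, and 12.5% in Nrf2-KO, against 8.91%. Rxra, a nuclear receptor that binds and restrains Nrf2, rose in Thy by 0.31 in WT (adjusted p = 0.00302) and by 0.45 in Nrf2-KO (adjusted p = 8.36e-05). Syvn1, a ubiquitin ligase of the endoplasmic reticulum that can target Nrf2, rose in iBAT by 0.47 (adjusted p = 0.00412) and 0.68 (adjusted p = 0.000102). Dpp3, a peptidase that competes with Nrf2 for Keap1, fell by 0.59 in iBAT of WT mice (adjusted p = 1e-04), and Rbx1, the RING subunit of the Cul3 ligase, fell by 0.45 (adjusted p = 0.00318). In Nrf2-KO, Vcp, which extracts Nfe2l1 from the endoplasmic reticulum, fell by 0.44 in iBAT (adjusted p = 5.97e-06), and Gsk3a, a kinase that marks Nrf2 for degradation, fell by 0.27 in Thy (adjusted p = 3.77e-05). By genotype, 1 pair rose and 8 fell on the ground, and 1 rose and 7 fell in flight, or 4.5% and 4% of the pairs against 1.65% and 1.35% of all. Btrc, the substrate receptor that recognises Nrf2 after this marking, fell in Nrf2-KO by 0.54 in Thy (adjusted p = 4.37e-06) and 0.45 in Spl (adjusted p = 0.0011) on the ground, and by 0.47 (adjusted p = 8.47e-05) and 0.45 (adjusted p = 0.00232) in flight. The calls in the other direction were Crebbp, a coactivator, in Thy on the ground (0.18, adjusted p = 0.0415) and Cdkn1a, the cell cycle inhibitor p21, in Kid in flight (1.198, adjusted p = 0.00223).

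Nrf2 target genes were followed as a list of 28 genes and 245 pairs, as a readout of the pathway. By genotype, 52 pairs fell and 1 rose between GC_KO and GC_WT, and 50 fell and none rose between FL_KO and FL_WT. This was 21.6% and 20.4% of the pairs, against 1.65% and 1.35% of all tested pairs. On the ground, 16 of 26 measured targets fell in Kid (median log2 change of the list -0.46, against 0.0026 for all genes), 13 of 26 in Liv (-0.52 against 0.01) and 11 of 28 in eWAT (-0.28 against 0.0018). In Spl 2 of 28 fell (-0.042 against -0.0011), in Thy 2 of 28 and in Cbr 2 of 27. Gstm1, a glutathione transferase, fell by 2.27 in Liv (adjusted p = 8.13e-12) and by 1.35 in Cbr (adjusted p = 1.25e-11) on the ground, and by 1.95 (adjusted p = 3.55e-10) and 1.32 (adjusted p = 7.05e-11) in flight. The pair that rose was Pgd, an enzyme of the pentose phosphate pathway, in iBAT (0.60, adjusted p = 0.0373).

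With flight the targets moved both ways. In WT 16 pairs rose and 20 fell, and in Nrf2-KO 15 rose and 24 fell, or 14.7% and 15.9% of the pairs against 6.55% and 8.91% of all. In iBAT 12 of 26 fell and 1 rose in WT, and 14 fell and 2 rose in Nrf2-KO (median of the list -0.273 and -0.355, against 0.02 and 0.04 for all genes), where 19.2% and 33.5% of all genes were called in either direction. Me1, malic enzyme, fell there by 1.56 (adjusted p = 2.13e-08) and 2.18 (adjusted p = 1.41e-10), and Taldo1, transaldolase, by 0.86 (adjusted p = 3.77e-07) and 1.38 (adjusted p = 6.59e-10). In Thy 10 of 28 rose and 2 fell in WT, and 8 rose and 4 fell in Nrf2-KO. This was 42.9% of the list in either genotype, against 22.8% of all genes called in WT and 38.2% in Nrf2-KO, so the share in Nrf2-KO was near the background. Abcc3, an efflux transporter, rose there by 0.79 in Nrf2-KO (adjusted p = 9.94e-05). In eWAT 4 of 28 rose and 4 fell in WT, and 3 rose and 3 fell in Nrf2-KO. The median of the list there was -0.0093 and -0.0087, against -0.0039 and -0.013 for all genes. Gstm1 rose there by 0.79 (adjusted p = 2e-05) in WT and by 1.13 (adjusted p = 1.2e-06) in Nrf2-KO. G6pdx, the first enzyme of the pentose phosphate pathway, rose there by 0.74 (adjusted p = 3.75e-05) in WT. In Liv 1 of 26 rose and 2 fell in WT, and 2 rose and 3 fell in Nrf2-KO. No target was called in the interaction of flight and genotype.

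The genes whose mean log2(TPM + 1) in GC_WT followed Nfe2l2 most closely over the 9 tissues, among 17212 genes, were Ephb4 (Pearson r = 0.974), Gng5 (0.97), Ctdsp1 (0.944), Eef2kmt (0.943) and Dpm3 (0.943). For Keap1 they were Gfpt1 (0.986), Gm16286 (0.981), Srrd (0.978), Abcf3 (0.978) and Ik (0.977). None of the 9 members was among the 5 closest to Nfe2l2 or to Keap1. With 9 points and this many genes, high values of r arise readily, and they are given as a description.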

How the data were processed

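RNA of 192 samples from 24 mice was sequenced as single reads, which the authors mapped to mm10 with STAR 2.6.1 and quantified with RSEM 1.3.1. The authors deposited expected counts per gene with no normalization, which share out reads with several possible origins, and TPM per gene, which is scaled to gene length and library. The deposited FPKM values, 192 columns, were not used. The strand setting used in counting is not given in the sources used here.

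Groups were taken from the labels, and the 8 samples of flight mouse 04 were left out, which leaves 184. Each tissue was fitted on its own, with rounded expected counts and all 4 groups together, by edgeR 4.0.16 under R 4.3.3 (filterByExpr, TMM, quasi-likelihood test). A gene was called when its Benjamini-Hochberg adjusted p, taken over every gene tested in that tissue, was below 0.05. SE is the standard error of the log2 fold change. The procedure was tested on simulated data. Ratios of Nfe2l2 to Keap1 and the loss of Nfe2l2 in Spl were compared by two-sided permutation tests (scipy 1.17.1), adjusted over the tissues. The same contrasts were repeated with DESeq2 1.42.0, with limma 3.58.1 on log2(TPM + 1) and log2(TPM + 0.1) where any group averaged 5 TPM or more, with no filter on low values, RLE factors, flight mouse 04 included, only the groups of a contrast, blocks, and mice left out. Whether mice of one number pair was checked by the correlation of their deviations from the group means. Every pair exceeded 0.1 in Liv of Nrf2-KO mice (5 of 5) and in MdB of Nrf2-KO mice (2 of 2). Most did in Liv of WT mice (4 of 6) and in TpB and iBAT of Nrf2-KO mice (4 of 5 each). At most 2 pairs did in any other tissue and genotype. Flight and ground mice of one number are different animals and the methods state no pairing, so the fit without the block was kept. Whether mice of one number shared a step of handling was not tested, and calls that change with the block are given below.

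Named genes are the 9 members in every comparison. Of other regulators and of Nrf2 targets they are, per comparison, up to 2 higher and 2 lower pairs with the smallest adjusted p among those called, and for Nfe2l2 and Keap1 the 5 genes with the highest r. The members and lists were chosen with earlier results of these data known. Nothing says how the RNA of one mouse was divided, so the spread between mice includes that of the preparation. Coordinates are from GENCODE vM21 on GRCm38, with the same identifiers for all 9 genes as in the deposited table, and promoters are from RefSeq on GRCm38.p6.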

Additional observations from a re-analysis of the deposited data

Results flagged for a closer look

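The loss of Nfe2l2 RNA in Nrf2-KO mice differed between Spl and each of the 8 other tissues, by the tests given in the report. Taken as the difference between Nrf2-KO and WT mice in log2 TPM of Spl minus that of the other tissue, it was 1.19 for TpB, 1.33 for MdB, 1.17 for Liv, 0.89 for eWAT, 1.09 for iBAT, 0.98 for Thy, 0.76 for Kid and 1.56 for Cbr. It was higher in every Nrf2-KO mouse than in every WT mouse for each tissue. The smaller loss in Spl was already known from earlier results on these data.

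Of 252 groups of 4 to 6 mice, 8 held a mouse that lay apart from its group by Dixon's 95% limit, where chance alone flags about 5% of groups. In Thy, FL_KO mouse 11 had 11.4 TPM of Nfe2l2, against 13.2 to 13.6 in the other mice of its group. In TpB, GC_WT mouse 06 had 30.5 TPM of Keap1, against 37.3 to 41.2. Cul3 was 25.4 TPM in Liv of GC_KO mouse 09, against 31.9 to 35.0, and 57.5 TPM in eWAT of GC_WT mouse 06, against 66.2 to 69.7. In Liv, Maff was 4.83 TPM in GC_WT mouse 03, against 1.29 to 2.29, and Sqstm1 was 311 TPM in GC_WT mouse 08, against 211 to 240. Nfe2l1 was 254 TPM in eWAT of GC_WT mouse 03, against 311 to 337, and Sqstm1 was 474 TPM in Cbr of FL_WT mouse 07, against 446 to 456.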

How the results depend on the processing

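The 10 pairs called between GC_KO and GC_WT and the 9 called between FL_KO and FL_WT were kept in each alternative fit, with at most 1 pair added, Mafg in eWAT in flight (DESeq2, and without FL_KO mouse 02). Between FL_WT and GC_WT the count ran from 8 to 12 and between FL_KO and GC_KO from 9 to 15, and it was 7 without FL_KO mouse 02 (7 to 12 over the mice left out in turn). Single mice were dropped one at a time where a group held 5 or fewer. With flight mouse 04 included, each call was kept. With limma on log2(TPM + 1), 5 of the 10 WT calls and 7 of the 11 Nrf2-KO calls were shared. On the TPM scales (pseudocount 1, 0.1 and 1 with no filter) the direction was reversed for Cul3 in Thy in WT (0.12, 0.12 and 0.12) and in Nrf2-KO (0.086, 0.087 and 0.086), for Mafk in Thy in WT (0.034, 0.036 and 0.034), for Keap1 in iBAT in Nrf2-KO (0.18, 0.19 and 0.18) and for Nfe2l2 in iBAT in Nrf2-KO (0.31, 0.32 and 0.31). The cause was not tested.

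With the mouse number as a replicate block, 11 pairs were called in WT, 8 of them shared (lost were Nfe2l1 in Thy and Nfe2l2 in eWAT, gained were Mafk in iBAT and Nfe2l1 and Nfe2l2 in Liv), and 9 in Nrf2-KO (lost were Keap1 in iBAT and Mafg in Thy). The block left too few pairs in MdB and Kid. The Liv difference in the Nfe2l2 to Keap1 ratio in WT was 0.33 with the block (adjusted p = 0.219 by an exact permutation test within numbers, whose raw p of 0.0312 is the smallest it can give, so that it says nothing on stability) and 0.32 from expected counts (adjusted p = 0.0682, exact). The smaller loss of Nfe2l2 in Spl missed the threshold against MdB in ground mice alone (1.37, adjusted p = 0.1, exact) and flight mice alone (1.29, adjusted p = 0.2, exact), and against Kid (0.85, adjusted p = 0.1, and 0.67, adjusted p = 0.114, exact), where so few mice allow no lower p. From expected counts, which are not corrected for gene length, the Mafg share in GC_WT was 79.8% in TpB, 84.6% in MdB, 63.4% in Spl, 70.9% in eWAT, 39.2% in Thy, 81.3% in Kid and 89.5% in Cbr. With ribosomal, mitochondrial, small RNA, Gm-numbered and Rn-prefixed genes taken out of the TPM, 31 of the 81 places in the order of tissues were kept. Counts limit Maff most, with 10 to 337 per library.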

Other observations

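Maff in iBAT split the mice of both Nrf2-KO groups and of FL_WT by number, a pattern noticed after the values had been seen. On the ground, GC_KO mice 01, 02 and 04 had 2.53, 4.90 and 2.84 TPM and mice 09, 11 and 12 had 11.5, 14.5 and 13.3 TPM. In flight it was the reverse, with 7.94 and 8.08 TPM in FL_KO mice 01 and 02 (8.61 in the excluded mouse 04) and 0.97, 0.91 and 1.64 TPM in mice 09, 11 and 12. The 6 GC_WT mice ran from 1.07 to 5.67 TPM and the 6 FL_WT mice from 1.34 to 6.57 TPM. In FL_WT, counts were 89, 145 and 78 in mice 03, 05 and 06, and 29, 33 and 42 in mice 07, 08 and 10. The GC_WT mice overlapped between these numbers. The log2 difference of Maff was 1.73 (SE 0.61, adjusted p = 0.179 by edgeR) between GC_KO and GC_WT and -1.42 (SE 0.64, adjusted p = 0.0902) between FL_KO and GC_KO, and neither was called. The latter was called without FL_KO mouse 01 (-1.89, adjusted p = 0.0429) or 02 (-1.90, adjusted p = 0.0442). Mafk in iBAT of the FL_KO mice was also higher in mice 01 and 02 (9.07 and 9.91 TPM) than in mice 09, 11 and 12 (5.22, 5.85 and 5.47 TPM). Maff in Liv was higher in the mice of low number in FL_WT (6.59, 4.46 and 3.31 against 1.66, 1.23 and 2.36 TPM). The same held there in FL_KO (11.47 and 6.52 against 1.31, 1.42 and 0.83 TPM) and GC_KO (4.09, 4.95 and 2.02 against 0.84, 1.03 and 0.53 TPM). In Liv of GC_WT these mice overlapped. In Cbr, Maff counts in the mice of low and high number were 45 and 33 against 19, 15 and 14 in FL_KO. They were 29, 29 and 26 against 15, 13 and 16 in GC_KO, and 29, 24 and 23 against 13, 15 and 22 in FL_WT. In Cbr of GC_WT they overlapped. In eWAT, Maff was 14.1 and 11.7 against 4.10, 8.53 and 5.71 TPM in FL_KO. It was 5.55, 6.05 and 6.29 against 5.03, 2.70 and 3.57 TPM in GC_WT. These mice overlapped in eWAT of GC_KO and FL_WT, and by counts in FL_KO of TpB, Spl and Thy. What the numbers stand for was not tested.

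The RefSeq windows of Nfe2l1 held 1 site with the letters TGCTGAC, part of the Maf recognition element, 41 bases before one of its starts. It lay within the stretch chr11:96824132-96824198, shown on the strand of the gene (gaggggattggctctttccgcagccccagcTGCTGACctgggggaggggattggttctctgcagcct, capitals mark the letters). The same letters occurred in windows of 5.28% of all gene symbols.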
